A study of Mus musculus with 24 samples.

Results

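Splicing factors and related RNA-binding proteins were followed on 2-colour arrays of heat-shocked mouse embryos. The set was chosen by gene symbol: every gene on a probe with exactly 1 symbol whose name begins with Hnrnp, Snrp or Snrnp, Sf3a or Sf3b, Prpf, Lsm, U2af, Luc7l, or Rbm followed by a digit. SR proteins (Srsf) were left out. The rule found 82 genes of 6970 on the arrays, namely 47 of the 3838 genes of slide type 1 and 56 of the 4075 genes of slide type 2, and 21 were on both. By prefix these were 17 hnRNP genes, 13 Snrp and Snrnp genes, 8 Sf3 genes, 8 Prpf genes, 6 Lsm genes, U2af1l4, 3 Luc7l genes and 26 Rbm genes. The rule uses names alone, but it was set with earlier results of these data known. The Rbm prefix names a domain and not a complex, so some of its 26 genes have no known place in the spliceosome. For short, all 82 genes are called splicing genes or members below, whatever their known role.

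Introns are removed from pre-mRNA by the spliceosome, which is built anew on each intron from the U1, U2, U4, U5 and U6 small nuclear ribonucleoproteins (snRNPs). U1 first marks the 5′ splice site, U2 and the U2AF dimer mark the branch point and the 3′ splice site, and the U4/U6.U5 tri-snRNP then joins and is remodelled into the active enzyme. hnRNPs coat the nascent transcript and influence which sites are used, often against SR proteins. Heat shock is known as a stress that inhibits splicing in animal cells and redistributes splicing factors within the nucleus.

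Cultured mouse embryos were exposed to 43 °C for 15 min, put back at 37 °C and collected 1 h later, and the control embryos stayed at 37 °C throughout. The sources used here give neither strain, genotype nor embryonic age, nor how many embryos went into each RNA. Each of the 24 arrays held total RNA of heat-shocked embryos in one channel and that of control embryos in the other. There were 3 numbered treatments, and each was put on 2 slide types carrying different probes with 4 arrays per slide type. In the first channel order heat-shocked RNA was in channel 1, and in the second it was in channel 2. Values are the authors' log ratios. Each array was centred on its median, the 4 arrays of a treatment were averaged with equal weight for the channel orders, and 3 treatments served as replicates. Whether they came from separate litters is not labelled, so p-values cover the spread between these treatments. The test used (limma) also draws on the spread of all genes in the fit. A small p-value therefore does not rest on the 3 values of 1 gene alone, and having only 3 treatments limits the precision.

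Neither the log base nor the numerator is stated, so the labels alone do not settle the direction. A difference of 1 unit is 2-fold with base 2 and 2.72-fold with the natural log. Results are given by side: positive values mean more signal from heat-shocked RNA when channel 1 is the numerator, and less when channel 2 is. A mirrored sign exchanges the sides and leaves each size and count as printed. Arrays of the same channel order on slide type 2 correlated as low as r = −0.34 over all probes. With the orders averaged, treatments correlated at r = 0.70 to 0.80 on slide type 1 and 0.82 to 0.90 on slide type 2, across probes that are not independent replicates. Heat shock and immediate early genes were used to check the labels, and all of those measured passed the test on the positive side (5 on slide type 1, 3 on slide type 2), among them Hsp90aa1, a cytosolic chaperone, at 1.18 and 1.14 units. These genes were chosen with earlier results of these data known, so the check is not independent. If heat raised the RNA of these genes here, positive values mean more signal from heat-shocked RNA. Of 10 measured markers of erythroid, yolk sac, trophoblast and neural cells on slide type 1, only Tubb3, a neuronal tubulin, was called, at −0.21. The erythroid Ermap, at 0.14, and the trophoblast Hand1, at −0.20, were not called but had an unadjusted limma p under 0.05. On slide type 2, 0 of 3 erythroid markers were called (1 had an unadjusted limma p under 0.05). Of all genes 5.65% were called negative and 5.73% positive on slide type 1, and 31.9% and 18.5% on slide type 2. Heart muscle markers were not measured, ratios give no level, and the labelled tissue could not be checked further. In whole-embryo RNA a change in the share of a cell type and a change in RNA per cell cannot be told apart.

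Promoter windows show the genes on which the results turn: Hnrnpa2b1, the gene farthest from 0, Luc7l2, whose probes on slide type 1 lay far apart, and Prpf31, which was called negative on both slide types with centred arrays. They are RefSeq sequences of build GRCm38.p6, each 300 bases long around the annotated start. Capitals mark matches to the heat shock element letters GAANNTTC or TTCNNGAA, each its own reverse complement, and to the CCAAT box, written ATTGG on the other strand.
Hnrnpa2b1, chr6:51469796-51470095, minus strand: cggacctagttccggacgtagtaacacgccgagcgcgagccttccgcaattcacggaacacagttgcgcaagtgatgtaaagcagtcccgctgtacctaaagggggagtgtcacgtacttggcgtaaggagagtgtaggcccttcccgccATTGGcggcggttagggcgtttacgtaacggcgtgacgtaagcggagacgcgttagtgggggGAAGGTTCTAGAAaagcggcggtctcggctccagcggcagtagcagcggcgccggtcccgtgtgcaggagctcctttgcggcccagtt
Luc7l2, chr6:38555473-38555772, plus strand: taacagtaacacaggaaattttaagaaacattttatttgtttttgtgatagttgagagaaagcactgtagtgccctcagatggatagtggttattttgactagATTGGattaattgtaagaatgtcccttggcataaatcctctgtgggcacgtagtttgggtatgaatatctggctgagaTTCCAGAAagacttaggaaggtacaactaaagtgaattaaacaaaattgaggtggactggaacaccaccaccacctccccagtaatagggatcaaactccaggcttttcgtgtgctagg
Prpf31, chr7:3629735-3630034, plus strand: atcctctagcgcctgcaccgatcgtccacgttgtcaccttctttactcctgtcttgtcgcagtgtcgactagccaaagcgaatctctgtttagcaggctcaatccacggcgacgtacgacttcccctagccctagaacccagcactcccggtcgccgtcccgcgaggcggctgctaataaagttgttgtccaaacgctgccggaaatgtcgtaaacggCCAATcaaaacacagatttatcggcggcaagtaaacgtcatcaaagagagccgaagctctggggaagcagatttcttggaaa
The Hnrnpa2b1 window is the first of 2 overlapping ones and holds both heat shock element letterings in 1 overlapping run. The Luc7l2 window holds 1 TTCNNGAA match, the Prpf31 window none of either kind, and all 3 hold 1 CCAAT match. Windows were on hand for 69 of the 82 genes, 84 windows in all. GAANNTTC was present in 8.33% of them and in 7.86% of all 32851 RefSeq windows, TTCNNGAA in 9.52% and 8.52%, and either one in 13.1% and 15.1%. CCAAT was present in 47.6% and 37.4%. These matches describe letters only, and a window without a match says nothing about the factor.

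On slide type 2, 32 of the 56 splicing genes were called on the negative side and 7 on the positive side, while 17 did not pass the test (limma, Benjamini-Hochberg over all 4075 genes at 0.05). Of all genes on that slide type 31.9% were called negative and 18.5% positive, so 57.1% of the splicing genes stand beside 31.9%. Their median was −0.17 units, against −0.05 over all genes. Of the 56 genes, 47 lay below 0, and 48 had the same sign in all 3 treatments. Of all 4075 genes, 2359 lay below 0, and 70.9% had the same sign in all 3 treatments. Medians by treatment were −0.17, −0.23 and −0.11. Slide type 1 had 3 of 47 called negative and 2 positive, beside 5.65% and 5.73% of all genes, with a median of −0.05 against −0.04. The 3 negative calls are 6.38% of the members there, near the background.

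The counts on slide type 2 depended on where 0 was set. Probes without a symbol had a median of 0.17 there, and probes with 1 symbol −0.05, so the centre over all probes lies above the median of named probes. Centred on probes with 1 symbol, 21 members were negative and 7 positive, beside 21.1% and 30.7% of all genes. With no centring Hnrnpa2b1 alone stayed negative and Rbm47 and Rbm8a positive, beside 1.6% and 1.87%. The counts also depended on the channel order. On slide type 2 the members' median was 0.01 in the first order and −0.36 in the second. Of the 32 negative members 17 were below 0 in both orders, which is 53.1% of them, and the other 15 were above 0 in the first order. Over all genes called negative this share was 70.6%. In either order alone, at most 1 of the 32 was still called. Of all genes only 0.147% were called negative in the first order alone and 0.27% in the second, so this loss was general. Leaving out treatment 1, 2 or 3 kept 22, 25 and 26 of the 32 negative calls and 5, 7 and 3 of the 7 positive ones. The 5 calls of slide type 1 were kept as 1, 3 and 4. Of all genes on slide type 1, 1.38%, 3.6% and 6.38% were then called negative and 3.26%, 4.4% and 5.08% positive. Of all genes on slide type 2, 22.9%, 30.1% and 25.8% were then called negative and 7.19%, 24.1% and 9.33% positive.

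**Figure D1:**
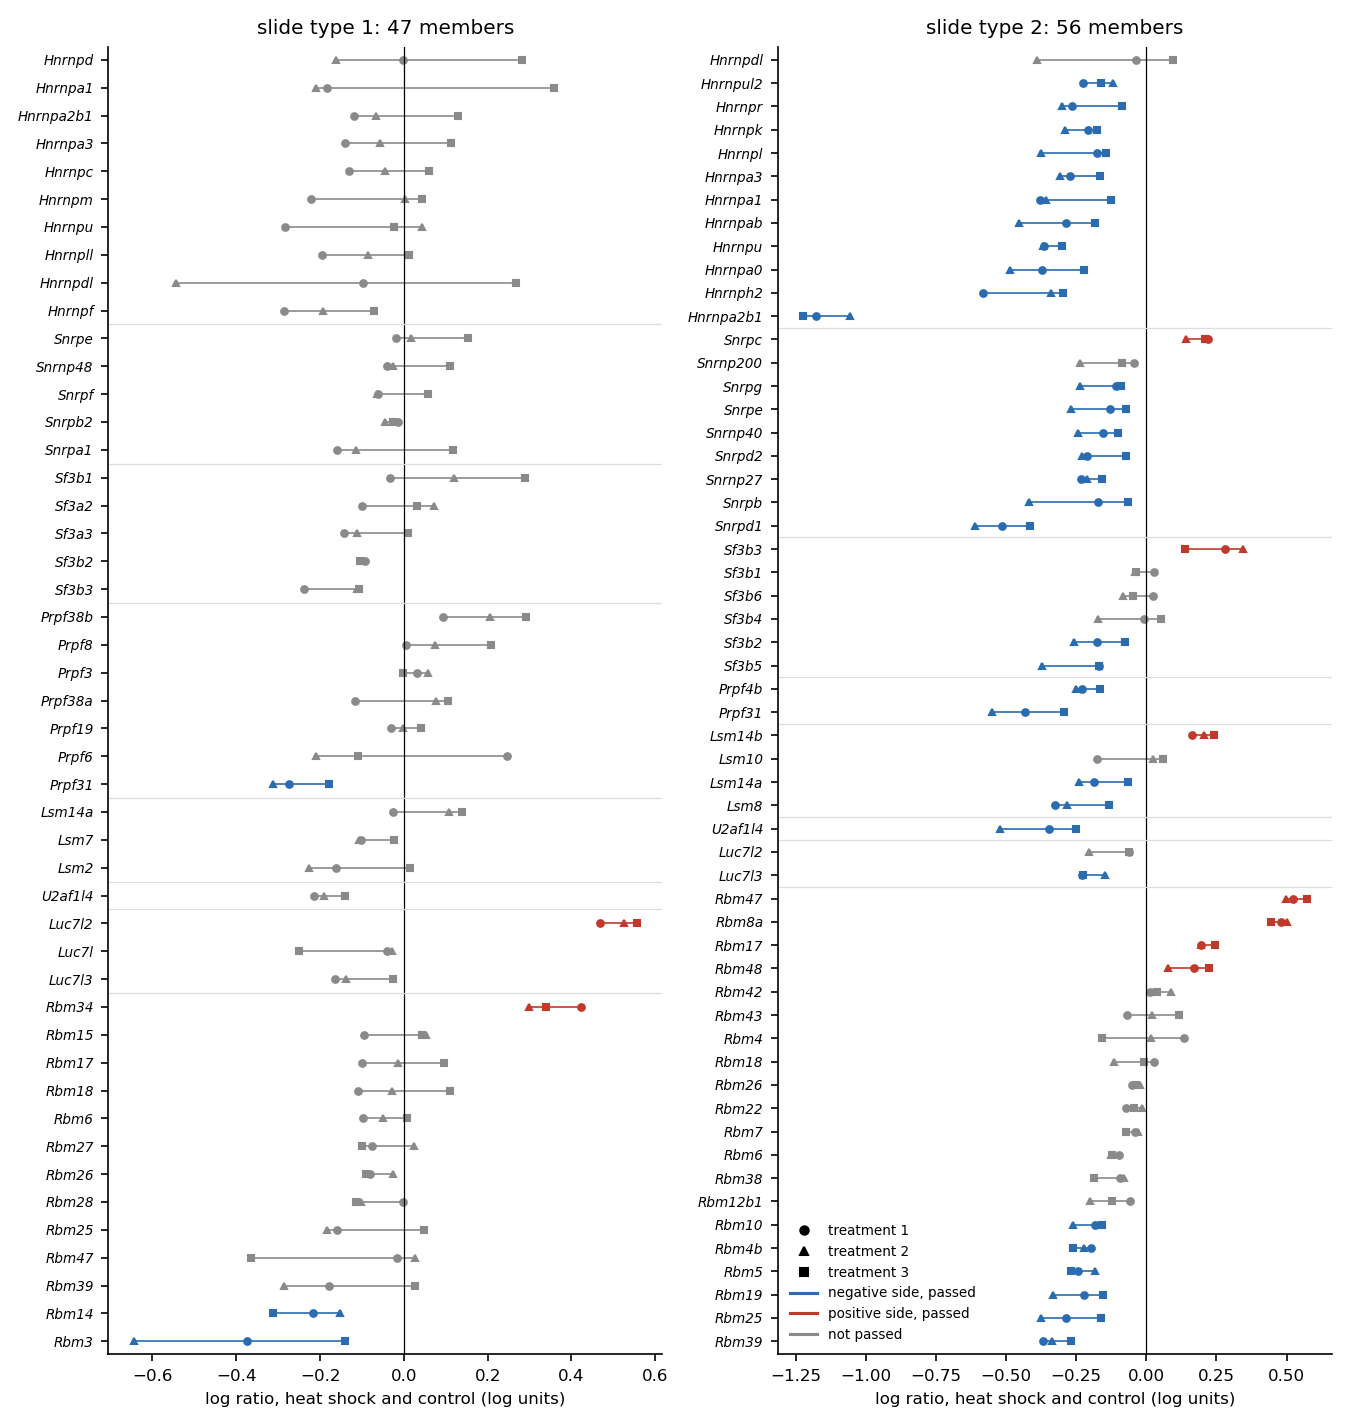
Log ratio (authors' units, each array centred on its median) of every splicing gene in each of the 3 treatments, with slide type 1 in one panel and slide type 2 in the other, whose horizontal ranges differ; marker shapes are treatments, and blue, red and grey mean called negative, called positive and not called. On slide type 2, 47 of 56 splicing genes have a mean below 0, as have 2359 of all 4075 genes. Hnrnpa2b1 lies at −1.15, apart from all other splicing genes.

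Among families with more than 2 genes on slide type 2, the hnRNPs had the highest share of negative calls. There 11 of 12 were called negative and 0 positive, beside 31.9% and 18.5% of all genes, with a median of −0.27. Of the 10 hnRNPs on slide type 1, 0 were called, beside 5.65% negative and 5.73% positive of all genes, with a median of −0.05 (1 had an unadjusted limma p under 0.05). Hnrnpa2b1, which binds pre-mRNA and exported mRNAs, had −1.18, −1.06 and −1.22 in treatments 1 to 3 on slide type 2. The 3 treatments lie close together, and all 12 arrays were below 0, from −1.91 to −0.23. The mean was −1.15 ± 0.09 (SD, n = 3 treatments, limma adjusted p = 2.33e-10), rank 5 from the lowest of 4075 genes. It was −0.67 in the first channel order and −1.64 in the second, so both orders put it on the negative side although they differ in size.

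The same gene symbol on a different probe of slide type 1 gave −0.12, −0.07 and 0.13, a mean of −0.02 ± 0.13 (SD, n = 3, limma adjusted p = 0.912). Of its 12 arrays 5 were below 0, and the whole range was −0.37 to 0.31. The array ranges of the slide types overlap only between −0.37 and −0.23. The difference, slide type 2 minus slide type 1, was −1.06, −0.99 and −1.35 in the 3 treatments, a mean of −1.13. This contrast was known when the genes were chosen and is given without a test. The limma p-values of Hnrnpa2b1 on each slide type come from the same known values and add no separate support. Its call on slide type 2 is among the 11 hnRNPs and 32 members counted as negative. Each slide type had 1 probe for Hnrnpa2b1. Which part of the transcript, which isoform or which paralogue each probe binds was not tested, since probe sequences were not used here.

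The next hnRNPs on slide type 2 were much nearer 0. Hnrnph2, a G-tract binding protein of the hnRNP H/F group, had −0.58, −0.34 and −0.30, with a mean of −0.41 ± 0.15 (SD, n = 3, limma adjusted p = 0.000121). Hnrnpa0, an A/B type hnRNP, had −0.37, −0.48 and −0.22, a mean of −0.36 ± 0.13. Hnrnpu, a large nuclear matrix and chromatin-associated hnRNP, had −0.36, −0.37 and −0.30, a mean of −0.34 ± 0.04. All 3 genes had the same sign in each treatment, but in the first channel order they were only −0.02, −0.10 and −0.03.

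Hnrnpab, Hnrnpa1 and Hnrnpa3, further A/B type proteins, had means of −0.31 ± 0.14, −0.29 ± 0.14 and −0.25 ± 0.07 on slide type 2. In the first channel order they lay above 0, at 0.02, 0.14 and 0.01, and in the second far below it, at −0.63, −0.71 and −0.50. Hnrnpl, which binds CA repeats, the poly(C)-binding Hnrnpk, Hnrnpr and Hnrnpul2 followed at −0.23 ± 0.12, −0.22 ± 0.06, −0.22 ± 0.11 and −0.17 ± 0.05. Hnrnpdl, a relative of Hnrnpd, was the hnRNP that was not called, with −0.04, −0.39 and 0.09. Its treatment 2 value was the lowest on slide type 1 as well, at −0.54, where treatments 1 and 3 gave −0.10 and 0.27. Among the 11 called hnRNPs, 5 changed side between the channel orders.

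The lowest hnRNP on slide type 1 was Hnrnpf, of the same group as Hnrnph2, with −0.29, −0.19 and −0.07. It did not pass the test (mean −0.18 ± 0.11, SD, n = 3, limma adjusted p = 0.0878). The other hnRNPs there ranged from −0.12 (Hnrnpdl) to 0.04 (Hnrnpd). In 9 of the 10, treatment 3 gave the highest value, and the family medians were −0.16, −0.08 and 0.09 in treatments 1 to 3. On slide type 2, treatment 3 was highest in 10 of 12. This was not particular to the hnRNPs, since treatment 3 was highest in 33 of all 47 members on slide type 1. On slide type 2 it was highest in 36 of all 56 members. Medians on slide type 1 were −0.10, −0.05 and 0.03 over all members and −0.03, −0.04 and −0.05 over all genes. The share of all genes with treatment 3 highest was not counted.

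**Figure D2:**
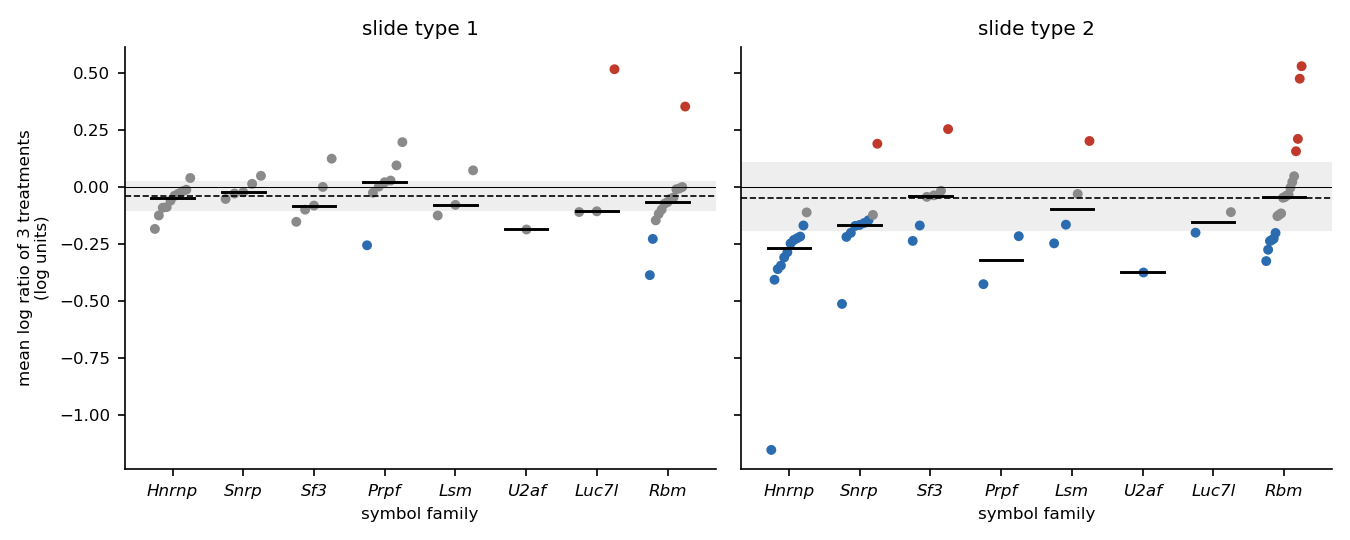
Mean log ratio of each splicing gene (blue called negative, red called positive, grey not called) by prefix family and slide type. Bars are family medians, the dashed line is the median of all genes and the grey band holds the middle 50% of all genes, and the hnRNPs of slide type 2 have their median at −0.27.

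Proteins of the snRNPs came next. Of 9 Snrp and Snrnp genes on slide type 2, 7 were called negative and 1 positive (all genes 31.9% and 18.5%). Their median was −0.17. On slide type 1, 0 of 5 were called, and 0 had an unadjusted limma p under 0.05. Of all genes on slide type 1, 5.65% were called negative and 5.73% positive. Snrpd1, a Sm core protein that forms part of the ring on U1, U2, U4 and U5 RNA, had −0.51, −0.61 and −0.41, a mean of −0.51 ± 0.10 (SD, n = 3, limma adjusted p = 5.67e-06). It was the second lowest splicing gene, at −0.20 in the first channel order and −0.82 in the second. The other Sm genes on slide type 2 were nearer 0, with Snrpb at −0.22 ± 0.18, Snrpd2 at −0.17 ± 0.09, Snrpe at −0.16 ± 0.10 and Snrpg at −0.15 ± 0.08. These 4 were called, yet all 4 lay between 0.05 and 0.11 in the first channel order. Of 14 other settings 4 kept the calls of Snrpe, Snrpg and the U5 gene Snrnp40, which were lost when any 1 treatment was left out.

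Snrnp27 and Snrnp40, proteins of the tri-snRNP and of U5, were called at −0.20 ± 0.04 and −0.17 ± 0.07. By channel order Snrnp40 was at 0.18 and −0.52. Snrnp200, the U5 helicase that unwinds U4 from U6, had −0.04, −0.24 and −0.09 and was not called. Snrpc, the U1 C protein that helps U1 hold the 5′ splice site, was the 1 positive gene of this family, at 0.22, 0.14 and 0.21 with a mean of 0.19 ± 0.04 (limma adjusted p = 0.0114). Its 2 probes lay 0.57 units apart, at 0.48 and −0.10, so the gene value is the average of unlike probes. The slide type 1 genes Snrpa1, Snrpb2, Snrpe, Snrpf and Snrnp48 (of the minor spliceosome) ranged from −0.05 to 0.05.

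Components that recognise the branch point and the 3′ splice site include U2AF and SF3 proteins. U2af1l4, a relative of the small U2AF subunit and the only U2af gene measured, had −0.35, −0.52 and −0.25 on slide type 2, with a mean of −0.37 ± 0.14 (SD, n = 3, limma adjusted p = 0.000198). Slide type 1 gave −0.21, −0.19 and −0.14, a mean of −0.18 ± 0.04 that did not pass the test (limma adjusted p = 0.06). Its values were below 0 in every treatment on both slide types and in both channel orders.

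Of 6 Sf3 genes on slide type 2, 2 were negative and 1 positive, near the 31.9% and 18.5% of all genes. Of 5 on slide type 1, 0 were called, and 1 had an unadjusted limma p under 0.05. All genes on slide type 1 gave 5.65% negative and 5.73% positive calls. SF3A and SF3B are the U2 snRNP parts that clamp the branch point. Sf3b5 and Sf3b2 were at −0.24 ± 0.12 and −0.17 ± 0.09, while Sf3b3, a large scaffold subunit, was at 0.28, 0.34 and 0.14 with a mean of 0.25 ± 0.11 (limma adjusted p = 0.00268). By channel order Sf3b3 was at 0.54 and −0.03. Sf3b1, the subunit that holds the branch-point helix, was at −0.02 ± 0.04 on slide type 2 and 0.12 ± 0.16 on slide type 1, and Sf3b4 at −0.04 ± 0.12. On slide type 1 the SF3A genes Sf3a2 and Sf3a3 were at 0.00 ± 0.09 and −0.08 ± 0.08. Sf3b6, which contacts the branch-point adenosine, had 2 probes on slide type 2 that the annotation gives the same clone accessions, at 0.24 and −0.31, on opposite sides of 0.

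Prpf genes code for tri-snRNP and Prp19 complex proteins and for kinases and cofactors. Prpf31, which bridges U4 and the tri-snRNP, was called negative on both slide types with centred arrays. Its slide type 2 values were −0.43, −0.55 and −0.29, a mean of −0.43 ± 0.13 (SD, n = 3, limma adjusted p = 5.55e-05), with its 2 probes at −0.43 and −0.42. A single probe on slide type 1 gave −0.27, −0.31 and −0.18, a mean of −0.26 ± 0.07 (limma adjusted p = 0.0172). All 6 treatment values lay below 0, and so did both channel orders on each slide type, at −0.24 and −0.27 on slide type 1 and −0.27 and −0.59 on slide type 2. Without centring, slide type 1 gave 0.049 and no call. The slide type 1 call was also lost without treatment 1 and without treatment 2.

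Prpf4b, a nuclear kinase associated with the tri-snRNP, was the other Prpf gene on slide type 2 and was called at −0.22 ± 0.05, with nearly equal channel orders of −0.22 and −0.21. The other 6 Prpf genes of slide type 1 were not called. Prpf38b had the highest value there at 0.20 ± 0.10 (limma adjusted p = 0.0622), and Prpf8, the large U5 protein at the catalytic centre, had 0.00, 0.07 and 0.21. Prpf19, the ubiquitin ligase that names the Prp19 complex, had −0.03, −0.00 and 0.04. Prpf3, Prpf6 and Prpf38a, further tri-snRNP and activation factors, had means of 0.03, −0.02 and 0.02.

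Lsm proteins form the ring on U6 RNA (Lsm2 to Lsm8) or act in the cytoplasm and on other RNAs. Lsm8, the subunit specific to the nuclear ring, had −0.33, −0.28 and −0.13 on slide type 2, a mean of −0.25 ± 0.10 (limma adjusted p = 0.00325), below 0 in both channel orders. Lsm2 and Lsm7, of the same ring, were on slide type 1 and were not called at −0.12 ± 0.12 and −0.08 ± 0.05. Lsm14a and Lsm14b are cytoplasmic proteins of P-bodies and are no spliceosome parts despite their names. Lsm14a was called at −0.16 ± 0.09 and Lsm14b at 0.20 ± 0.04 on slide type 2. Lsm14b treatments lay close together, but its channel orders were far apart, −0.44 against 0.84, and its call was lost without treatment 3. Lsm10, of the U7 snRNP for histone mRNA, had −0.18, 0.02 and 0.06 and was not called.

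The Luc7l genes encode U1-associated proteins that affect the choice of 5′ splice site. Luc7l2 was the highest splicing gene on slide type 1, with 0.47, 0.53 and 0.56 and a mean of 0.52 ± 0.04 (SD, n = 3, limma adjusted p = 0.000249). The gene value averages 2 unlike probes, one at 1.14 ± 0.22 and the other at −0.10 ± 0.14. Its 2 probes on slide type 2 were at −0.06 and −0.16, and the gene was not called at −0.11 ± 0.08. So 3 of its 4 probes lay between −0.16 and −0.06 and 1 stood at 1.14. Luc7l3 was negative on slide type 2 at −0.20 ± 0.05 and not called on slide type 1 at −0.11 ± 0.07. Its channel orders on slide type 2 lay on opposite sides, at 0.25 and −0.65. Luc7l, on slide type 1, had −0.04, −0.03 and −0.25 and was not called.

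The Rbm genes, which share RNA recognition motifs and little else, had calls on both sides. Of 20 on slide type 2, 6 were negative and 4 positive, near the 31.9% and 18.5% of all genes, with a median of −0.05. The genes farthest from 0 were positive. Rbm47, known in mice and humans as a cofactor of APOBEC1 in RNA editing and as an RNA-binding regulator in epithelia, had 0.52, 0.50 and 0.57, a mean of 0.53 ± 0.04 (SD, n = 3, limma adjusted p = 2.43e-06). Rbm8a, the Y14 protein of the exon junction complex, had 0.48, 0.50 and 0.44, a mean of 0.48 ± 0.03 (limma adjusted p = 6.99e-06). For each of these genes 10 of the 12 arrays were above 0, and the means by channel order were 0.86 and 0.20 for Rbm47 and 0.73 and 0.22 for Rbm8a. Rbm17, a splicing factor that acts at the 3′ splice site, and Rbm48 were also positive at 0.21 ± 0.03 and 0.16 ± 0.07, and both calls were lost without treatment 3.

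Rbm39 and Rbm25, splicing regulators related to U2AF and associated with U1, were the lowest Rbm genes on slide type 2. Rbm39 had −0.37, −0.34 and −0.27 with a mean of −0.32 ± 0.05, and Rbm25 −0.29, −0.37 and −0.16 with a mean of −0.27 ± 0.11. The tumour suppressor-type splicing regulators Rbm5 and Rbm10 were negative at −0.23 ± 0.04 and −0.20 ± 0.05, and their relative Rbm6 was not called at −0.12 ± 0.02. The remaining negative genes were Rbm19, of ribosome production, at −0.24 ± 0.09 and Rbm4b at −0.23 ± 0.03. Both lay above 0 in the first channel order, at 0.04 and 0.08, and below it in the second, at −0.52 and −0.53. Rbm22, which binds the active site region of the catalytic spliceosome, was at −0.04 ± 0.03 and was not called. The 10 Rbm genes of slide type 2 that did not pass the test, among them Rbm4, Rbm7, Rbm12b1, Rbm18, Rbm26, Rbm38, Rbm42 and Rbm43, had means from −0.13 to 0.05.

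Slide type 1 carried Rbm3, the cold-inducible RNA-binding protein, which had −0.37, −0.65 and −0.14 and a mean of −0.39 ± 0.25 (SD, n = 3, limma adjusted p = 0.0173). It was the lowest splicing gene there, at rank 36 of 3838, with treatment 2 lowest and treatment 3 nearest 0. Its call was lost without treatment 1 and without treatment 2. Rbm14, a paraspeckle and coactivator protein, had −0.22, −0.15 and −0.31, a mean of −0.23 ± 0.08 (limma adjusted p = 0.0325), and its call was kept in 6 of 14 other settings. Rbm34, a nucleolar protein, was positive at 0.42, 0.30 and 0.34, a mean of 0.35 ± 0.06 (limma adjusted p = 0.00291), with 2 probes at 0.80 and −0.10, and its call was lost without treatment 1. The other 10 Rbm genes there, including Rbm15, Rbm27 and Rbm28, were not called and had means from −0.15 to 0.00. Both positive splicing genes of slide type 1, Luc7l2 and Rbm34, thus rest on 1 of 2 probes.

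**Figure D3:**
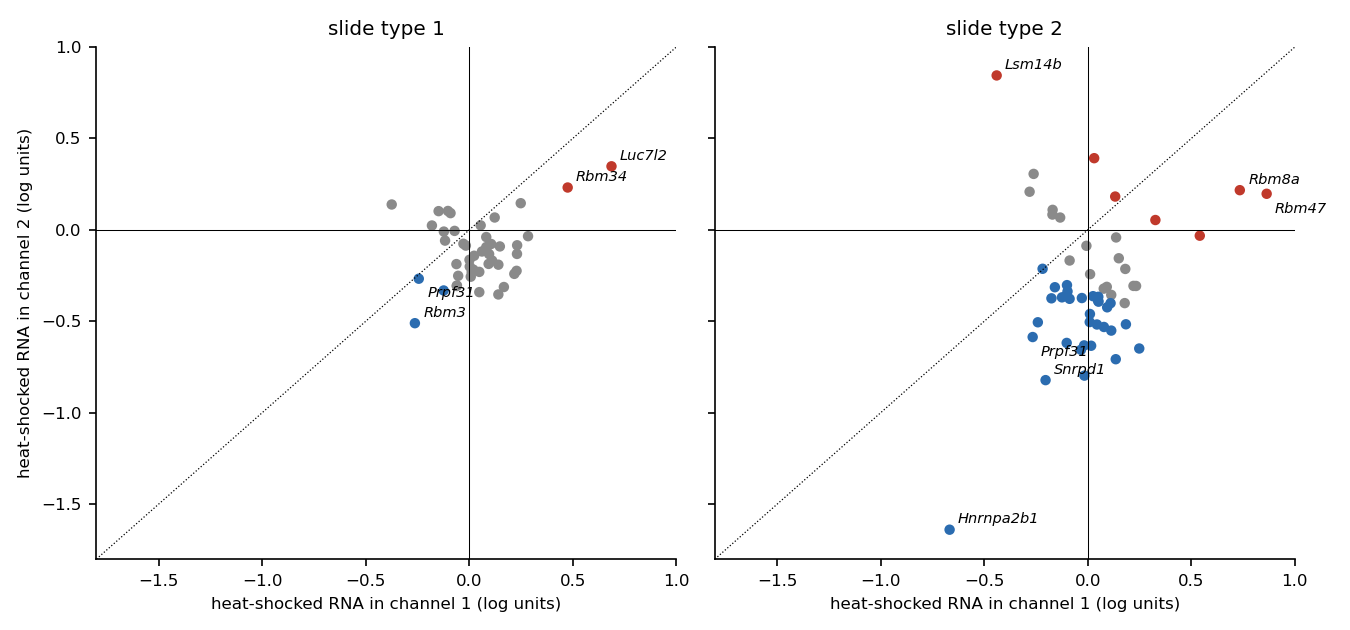
Mean log ratio of each splicing gene in the first channel order (horizontal, heat-shocked RNA in channel 1) and the second (vertical), by slide type, with blue points called negative, red called positive, grey not called and a dotted line of equal values. Most slide type 2 points lie below 0 on the vertical axis and around 0 on the horizontal axis, and Hnrnpa2b1 lies at −0.67 and −1.64.

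By array, the members' median in treatment 2 on slide type 2 was 0.41 and 0.30 in the first channel order and −0.89 and −0.83 in the second. In treatment 1 it was −0.22 and −0.39 against −0.19 and 0.02, and in treatment 3 it was 0.00 and −0.03 against −0.22 and −0.20. Treatment 2 therefore has the widest gap between orders. The part that the channel itself has in any value of 1 order was not tested. Averaged over both orders, the treatments gave member medians of −0.17, −0.23 and −0.11, close together.

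**Figure D4:**
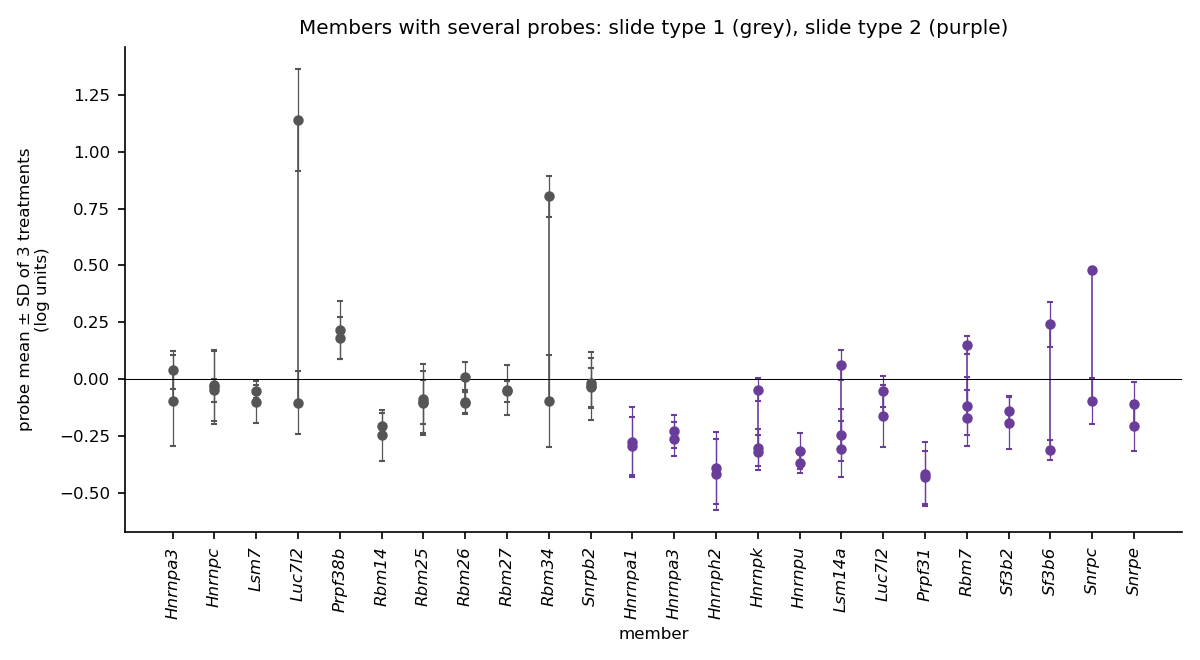
Mean log ratio of each probe (vertical, with bars for the SD of 3 treatments) for splicing genes with several probes, grey on slide type 1 and purple on slide type 2. Luc7l2 and Rbm34 on slide type 1 and Snrpc and Sf3b6 on slide type 2 have probes over 0.5 units apart.

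Several probes of 1 gene gave a check within a slide type. On slide type 1 there were 11 genes with several probes, with a median gap between the highest and lowest of 0.04 units, and in 2 the gap was over 0.2 units, Luc7l2 at 1.24 and Rbm34 at 0.90. Slide type 2 had 13 such genes, with a median gap of 0.10, and in 5 it was over 0.2. These were Snrpc at 0.57, Sf3b6 at 0.55, Lsm14a at 0.37, Rbm7 at 0.32 and Hnrnpk at 0.28. The 3 Hnrnpk probes lay at −0.32, −0.30 and −0.05. A gene with 1 probe, as 36 and 43 of the members were, has no such check, and Hnrnpa2b1, Rbm47, Rbm8a and Snrpd1 are among them.

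The 21 genes measured on both slide types were compared within treatments. Without Hnrnpa2b1, 5 of 20 were lower on slide type 2, 3 were higher and 12 did not pass the test (limma on the differences paired by treatment, adjusted over all 943 shared genes). Of all shared genes 16.5% were lower and 8.91% higher on slide type 2. The median difference was −0.16 units for the 20 genes and −0.06 for the 943. The count moved with the centre chosen for each slide type, since 19 of 20 were called with no centring, beside 68% of all shared genes, and 4 with centring on probes with 1 symbol, beside 25%. Without treatment 1, 2 or 3 it was 4, 5 and 3, beside 13%, 26.6% and 19.6% of all shared genes.

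Luc7l2 had the lowest difference, −0.53, −0.73 and −0.62 in treatments 1 to 3, a mean of −0.63 ± 0.10 (SD, n = 3, limma adjusted p = 0.000536), and its probe at 1.14 on slide type 1 enters it. Hnrnpa1, Hnrnpu, Lsm14a and Hnrnpa3 were lower by smaller amounts, at −0.27 ± 0.18, −0.26 ± 0.17, −0.24 ± 0.10 and −0.22 ± 0.08, with limma adjusted p of 0.0425, 0.0456, 0.0407 and 0.0467. The higher genes were Rbm47, Sf3b3 and Rbm17. Rbm47 was at 0.54, 0.47 and 0.94, a mean of 0.65 ± 0.25 (limma adjusted p = 0.00218), as its slide type 1 probe had −0.02, 0.03 and −0.36. Sf3b3 was at 0.41 ± 0.14 (limma adjusted p = 0.00775), being −0.15 ± 0.07 on slide type 1 and 0.25 ± 0.11 on slide type 2. Rbm17 was at 0.22 ± 0.07 (limma adjusted p = 0.0467) and −0.0035 without centring, where it was not called. Across 13 other settings Luc7l2, Rbm47 and Sf3b3 each kept their call in 12, and Hnrnpa1, Lsm14a, Hnrnpu, Hnrnpa3 and Rbm17 in 5, 5, 4, 3 and 2.

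For the other 12 the values by slide type, 1 first, lay nearer each other. Rbm39 had −0.15 and −0.32, U2af1l4 −0.18 and −0.37, Rbm25 −0.10 and −0.27, Prpf31 −0.26 and −0.43, and Snrpe 0.05 and −0.16. Sf3b1 had 0.12 and −0.02, Luc7l3 −0.11 and −0.20, Sf3b2 −0.10 and −0.17, and Rbm6 −0.05 and −0.12. Rbm18 had −0.01 and −0.03, Rbm26 −0.07 and −0.04, and Hnrnpdl −0.12 and −0.11. The differences of these 12 genes ran from −0.21 to 0.03. Prpf31 was the 1 member of the 21 called on both slide types.

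**Figure D5:**
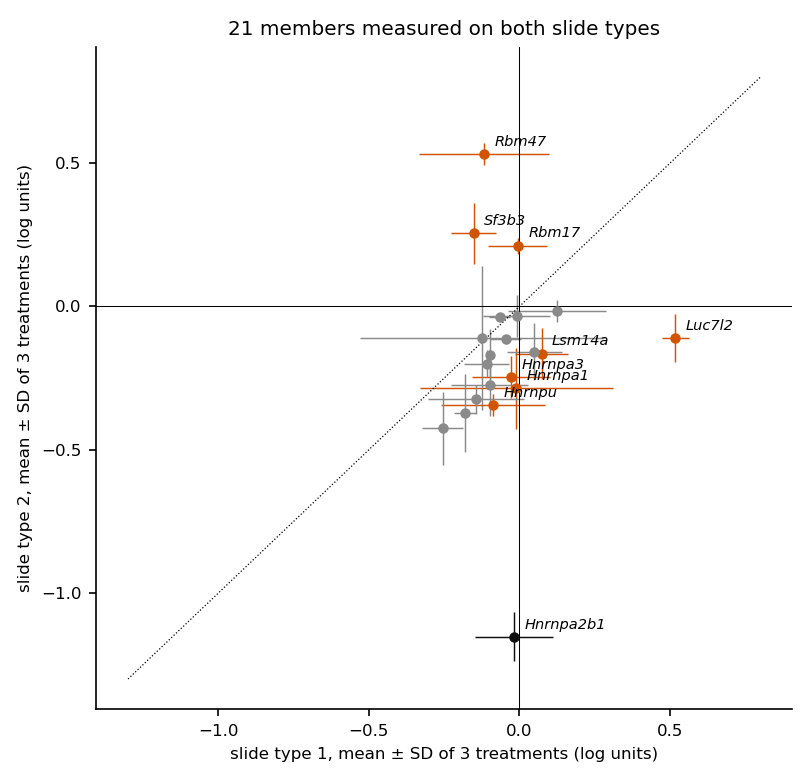
Mean log ratio on slide type 1 (horizontal) and slide type 2 (vertical) for the 21 splicing genes on both slide types, with a dotted line of equal values, bars for the SD of 3 treatments, and orange points for genes called in the difference (Hnrnpa2b1, in black, was not tested). Hnrnpa2b1 lies near 0 on slide type 1 and at −1.15 on slide type 2, and Luc7l2 and Rbm47 lie far from the line on opposite sides.

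Genes outside the prefixes were counted from 3 lists, which were drawn up with earlier results of these data known. Of other spliceosome proteins (helicases, Prp19-related and late-joining factors), 10 of 22 were negative and 1 positive on slide type 2, among them Cwc22 at −0.59, a protein that loads the exon junction complex, Ddx39b at −0.56, the U2AF-associated helicase, and Txnl4a at −0.33, a U5 protein. Of these, 0 of 27 were negative and 5 positive on slide type 1, led by Gpkow at 0.51, Usp39 at 0.45 and Cwc25 at 0.38, and 4 had an unadjusted limma p under 0.05 on the negative side. Of other splicing regulators and RNA-binding proteins, 14 of 26 were negative and 1 positive on slide type 2, with Rbmxl1 at −0.52, Syncrip at −0.45 and Son at −0.42. They were 7 of 23 negative and 0 positive on slide type 1, with Tia1 at −0.41, a stress granule protein, Rbmx at −0.37 and Sfpq at −0.29, a paraspeckle protein. Of exon junction, cap-binding, 3′ end and SMN complex proteins, 9 of 16 were negative and 0 positive on slide type 2, with Gemin4 at −0.39, Pabpn1 at −0.38 and Casc3 at −0.28, and on slide type 1 these were 0 of 15 negative and 1 positive, Thoc7 at 0.36, and 3 had an unadjusted limma p under 0.05 on the negative side. These counts stand beside 31.9% negative and 18.5% positive of all genes on slide type 2, and 5.65% and 5.73% on slide type 1.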

How the data were processed

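Heat-shocked and control RNA of mouse embryos were hybridised together on 24 arrays with 2 channels each. The values are log ratios that the authors deposited as 1 processed table per slide type (7680 probes and 12 arrays each), taken here as a score, since log base, numerator, background correction and normalization are stated nowhere in the sources used here. There were 0 missing values and 0 unmapped columns. Spot intensities were not used, so neither dim nor saturated spots were filtered.

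The median of all probes was subtracted from each array, the sign was turned where the labels put heat-shocked RNA in channel 2, and the 4 arrays per treatment on a slide type were joined with equal weight for each channel order. What the suffix B in some slide codes marks is not stated. A gene is the mean of its probes with exactly 1 symbol in the platform annotation. Each slide type was fitted with limma 3.58.1 in R 4.3.3 (lmFit and eBayes on an intercept over 3 treatments), with Benjamini-Hochberg adjustment over all its genes at 0.05, and called means past that threshold. The difference between slide types was fitted the same way on values paired by treatment, taken from the number before the dot in the array titles.

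The set of genes and the lists were chosen with earlier results of these data known. Named genes are up to 12 per side and slide type among those that passed with 1 sign in all treatments, the member of each prefix with the smallest p, every member on both slide types, up to 3 genes of each further list and Hnrnpa2b1. Other genes were named to account for the rest of a family, after their values were seen. The fit was tested on simulated data. Alternatives changed the centring, channel order, suffix, probe choice, prior, threshold (treat of limma against 0.2 units), replicate block and treatments left out. A correction by a running median over 101 neighbouring probe numbers was chosen after seeing the data. Motif matches came from RefSeq windows. All 82 symbols matched the RefSeq table. Figures were drawn with matplotlib 3.10.9.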

Additional observations from a re-analysis of the deposited data

Results flagged for a closer look

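Values of 1 gene that differed between the slide types, by the test of the difference itself over 3 treatments, were found for 8 of 20 splicing genes (Hnrnpa2b1 was left out of the test), beside 25.5% of the 943 shared genes. Slide type 2 minus slide type 1 was −0.63 for Luc7l2, −0.27 for Hnrnpa1, −0.26 for Hnrnpu, −0.24 for Lsm14a and −0.22 for Hnrnpa3. It was 0.65 for Rbm47, 0.41 for Sf3b3 and 0.22 for Rbm17. The slide types carry different probes and were centred apart, and the part of either in these differences was not tested.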

How the results depend on the processing

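With no centring, the splicing genes called negative and positive were 0 and 3 on slide type 1 and 1 and 2 on slide type 2, with medians of 0.26 and −0.084, and 19 differed between slide types. All genes gave 0.13% and 6.85% on slide type 1, 1.6% and 1.87% on slide type 2, and medians of 0.27 and 0.034. Of the shared genes 68% differed. Centring on probes with 1 symbol gave 21 negative genes and a median of −0.092 on slide type 2, and 4 differences. Beside these stand 21.1%, a median of 0.026 and 25% over all genes. With heat-shocked RNA in channel 1 alone there were 7 positive genes on slide type 1 (median 0.049), 0 negative and 1 positive on slide type 2 (median 0.014) and 3 differences. Over all genes these were 10.6% (median −0.013), 0.147% and 1.08% (median −0.035) and 6.68%. With heat-shocked RNA in channel 2 alone there were 0 negative and 0 positive on slide type 1 (median −0.13), 1 and 0 on slide type 2 (median −0.36) and 0 differences. All genes then gave 3.26% and 1.8% (median −0.074), 0.27% and 0.319% (median −0.12) and 5.2%. Against 0.2 units the counts were 0 negative and 1 positive on slide type 1 and 4 and 2 on slide type 2. Beside them stand 0.495% and 1.93% of all genes on slide type 1 and 5.33% and 1.72% on slide type 2. Arrays with the suffix alone gave 1 negative gene on slide type 1, beside 1.95% of all genes. Both with and without the suffix 3 differences were called, beside 13.6% and 19.4% of the shared genes. The replicate block over 12 arrays (estimated correlation 0.065 and −0.20 on slide types 1 and 2) gave 6 negative genes on slide type 1 and 33 on slide type 2, beside 12.3% and 35.5% of all genes. No replicate block in the difference, with treatments unpaired, gave 4, beside 22.1% of the shared genes. Leaving out a treatment gave 0 to 4 negative and 1 to 2 positive genes on slide type 1, 22 to 27 and 3 to 7 on slide type 2, and 3 to 5 differences. All genes gave 1.38% to 6.38% and 3.26% to 5.08% on slide type 1, and 22.9% to 30.1% and 7.19% to 24.1% on slide type 2. Of the shared genes 13% to 26.6% differed.

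Side changes on a slide type are listed only for genes that the naming rule picked and that were called there. Without centring the value changed side for Prpf31 (0.049), Rbm14 (0.076), Sfpq (0.014) and Tubb3 (0.094) on slide type 1. In the difference between slide types it did so for Hnrnpdl (−0.21), Rbm26 (−0.19) and Rbm17 (−0.0035). The whole of slide type 1 moved, with the median of members going from −0.046 to 0.26 and that of all genes from −0.038 to 0.27. With heat-shocked RNA in channel 1 alone the value changed side on slide type 2 for Hnrnpab (0.016), Hnrnpa1 (0.14), Hnrnpa3 (0.0096), Lsm14b (−0.44), Luc7l3 (0.25), Lsm14a (0.094), Sf3b2 (0.026) and Snrpe (0.051). These are a part of the changes, since 15 of the 32 negative members were above 0 in this channel order. In the difference, among the genes called there, it changed side for Hnrnpu (0.084) and Rbm17 (−0.051). With heat-shocked RNA in channel 2 alone Sf3b3 on slide type 2 was at −0.032. The cause was not tested. Of 14 settings each, 13 kept the slide type 2 calls of Hnrnpa2b1 and Rbm47 and the slide type 1 call of Luc7l2. A value from 3 treatments of averaged arrays has no measure of signal over background here.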

Other observations

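Probes shared by several symbols stayed out of the gene values. On slide type 2 a probe annotated to both Cpne1 and Rbm12 had 0.97, 1.19 and 1.37 in treatments 1 to 3, a mean of 1.18 ± 0.20 (SD, n = 3), and one annotated to Rbm12 and Cpne1 on slide type 1 had −0.07, 0.10 and −0.05. A probe of Prpf31 and 1810009A15Rik had a mean of −0.32 ± 0.05 on slide type 2 and −0.08 ± 0.07 on slide type 1. The Lsm5 probe shared with Gm7846 had −0.20 ± 0.06, and the Rbm15b probe shared with Dcaf1 −0.19 ± 0.18, both on slide type 2. On slide type 1 the Prpf4 probe shared with AW047464 had 0.13 ± 0.11 and the Hnrnpa3 probe shared with Gm11847 −0.07 ± 0.09.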
